A study of Rattus norvegicus and Ovis aries with 113 samples.

Results

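The serpins are a gene family whose members were followed here through sperm, ovary and brain of sheep and rat. A gene was counted as a member when its symbol, in either species' count tables, began with SERPIN. That gave 73 genes, 50 among the 38675 genes of the rat tables and 23 among the 31304 of the sheep tables. The family had been chosen because rat Serpina1f and Serpina16 were seen to be among the most abundant sperm transcripts in these same libraries. The difference between rat sperm and rat brain is therefore a description: counts of calls are printed beside their share of all genes, and nothing is read from them. Comparisons of ovary with brain, of the sexes, of sheep sperm with brain and of the sheep regions were not used to choose the members.

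Serpins are proteins of 1 shared fold in which an exposed reactive loop acts as bait for a protease. When a serine protease cuts the loop, the inhibitor snaps into a new shape and holds the enzyme in a dead covalent complex, so each molecule is used once. Some members have lost inhibition and act as hormone carriers, chaperones or growth factors. Clade A members are mostly secreted, liver-made plasma inhibitors that lie side by side in the genome. Clade B members stay largely inside cells such as leukocytes and keratinocytes. Antithrombin (clade C), the thrombin inhibitor SERPINE2 (clade E), the complement inhibitor SERPING1, the collagen chaperone SERPINH1 and the neuronal inhibitor SERPINI1 make up most of the rest. In the male tract and in semen, serpins bathe the sperm cell as it matures, and in the brain SERPINI1 and SERPINE2 restrain plasminogen activators and thrombin around neurons and glia.

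The tissue came from 5 male sheep (Ovis aries) past puberty, numbered 687, 688, 690, 694 and 699, from 15 post-pubertal male Sprague Dawley rats, numbered 3 to 17, and from 14 female Sprague Dawley rats, numbered 1, 2 and 18 to 29. From every sheep there were 10 brain dissections of 1 hemisphere (basal ganglia, cerebellum, entorhinal, frontal, motor, posterior parietal, prefrontal and visual cortex, hippocampus and pons) and 1 sperm sample. Each rat gave the whole brain and, by sex, an ovary or seminal fluid that the labels call sperm. No animal received a treatment or carried an engineered allele according to the labels, and the sources used here give no ages beyond puberty. Levels are given as CPM (counts-per-million), scaled by edgeR's TMM factors, with all libraries of a species scaled together. They are not divided by gene length, so a level is compared between samples and not between genes.

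Assigned counts per library, in the number of counts that 1 CPM is taken over (M), were 41.0 ± 19.8 M (SD, n = 5) in sheep sperm, 57.0 ± 5.05 M (n = 50) in sheep brain, 49.2 ± 13.6 M (n = 15) in rat sperm, 55.4 ± 2.96 M (n = 14) in ovary, and 63.4 ± 21.1 (n = 14) and 52.7 ± 15.0 M (n = 15) in female and male rat brain. Several libraries stood apart. In the brain libraries of rats 1 and 4, 94.8% and 89.2% of counts lay in 5 entries led by ribosomal RNA, against 59.6% in the brain of rat 22 and no more than 36.1% in any rat sperm or ovary library. In sheep sperm, 4 entries with placeholder names took 22.4% to 85.2% of counts, the most in sheep 687, against 3.89% to 14.6% in sheep brain. The TMM scaling and plain totals differ most for such libraries. The sperm libraries of rats 16 and 17 held counts for only 13730 and 13059 genes, the fewest of that group. TMM factors ran from 0.124 to 0.343 in sheep sperm. Spermatid markers were present in both sperm groups, but so were others. In rat sperm the summed CPM of the 12-gene spermatid and sperm list ran from 383 to 29019 and that of the 12-gene epididymis list from 1800.0 to 12015. The seminal vesicle and prostate list summed to only 0.682 to 17.8 CPM there. In these bulk samples, fewer cells of a type and less RNA per cell cannot be told apart.

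Of the 50 rat genes, 18 lay in 1 block of 575 kb on chromosome 6 (128520894 to 129095950, GRCr8), in which all 18 protein-coding genes were serpins. Another 11 were on chromosome 13 and 9 on chromosome 17. The 3 genes that took the most serpin counts in rat sperm were near neighbours in the chromosome 6 block, at chr6:128565659-128573037 (Serpina16), chr6:128585697-128591902 (Serpina1f) and chr6:128611592-128623601 (Serpina1fl1), and the rat sperm results turn on them. The 250 bases before their start sites are printed here, taken from RefSeq promoters of GRCr8, all 3 on the minus strand and read 5′ to 3′ towards the gene. They cover chr6:128573038-128573287, chr6:128591903-128592152 and chr6:128623602-128623851. Capitals mark the longest exact runs that Serpina1f shares with each of its neighbours, TATGGTCC with Serpina16 and TCTCTCCTTT with Serpina1fl1.
Serpina16: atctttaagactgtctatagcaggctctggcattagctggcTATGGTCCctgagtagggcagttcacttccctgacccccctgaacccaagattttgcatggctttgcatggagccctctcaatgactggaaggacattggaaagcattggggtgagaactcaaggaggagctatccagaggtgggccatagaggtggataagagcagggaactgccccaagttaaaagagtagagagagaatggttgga
Serpina1f: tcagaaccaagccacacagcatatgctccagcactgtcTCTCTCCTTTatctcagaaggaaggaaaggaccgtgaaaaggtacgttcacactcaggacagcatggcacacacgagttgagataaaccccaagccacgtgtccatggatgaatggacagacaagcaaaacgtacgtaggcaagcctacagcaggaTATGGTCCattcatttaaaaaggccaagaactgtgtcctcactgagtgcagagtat
Serpina1fl1: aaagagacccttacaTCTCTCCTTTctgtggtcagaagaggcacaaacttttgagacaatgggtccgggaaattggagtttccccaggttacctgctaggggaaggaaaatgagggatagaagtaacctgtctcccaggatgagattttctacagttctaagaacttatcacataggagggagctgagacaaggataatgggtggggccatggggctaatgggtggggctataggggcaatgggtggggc
The run shared by Serpina16 and Serpina1f was 8 bases long, the run shared by Serpina1f and Serpina1fl1 was 10, and the longest between Serpina16 and Serpina1fl1 was 7. Over all 780 pairs of the 40 rat serpin genes with a RefSeq upstream sequence the median longest run was 8 bases, so these neighbours were close to the typical pair.

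The upstream sequences of Serpina3m and Serpina3n, which code for inhibitors of the antichymotrypsin type and lie farther along the same block, are shown as the contrasting case. They lie at chr6:128836840-128837089 (minus strand) and chr6:129088142-129088391 (plus strand), and capitals mark their shared run.
Serpina3m: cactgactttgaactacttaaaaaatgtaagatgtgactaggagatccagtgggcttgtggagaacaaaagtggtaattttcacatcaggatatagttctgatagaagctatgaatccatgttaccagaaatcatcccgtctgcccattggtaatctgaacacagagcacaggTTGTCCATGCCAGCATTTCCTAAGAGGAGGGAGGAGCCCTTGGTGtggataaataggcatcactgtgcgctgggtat
Serpina3n: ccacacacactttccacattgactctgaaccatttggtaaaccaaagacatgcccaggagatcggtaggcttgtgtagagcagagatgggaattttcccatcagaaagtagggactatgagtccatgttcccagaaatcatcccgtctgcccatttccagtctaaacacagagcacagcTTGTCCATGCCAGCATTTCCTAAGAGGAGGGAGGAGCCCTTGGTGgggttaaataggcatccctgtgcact
These sequences shared 45 bases without a mismatch, the longest run of any pair, and only 3 of the 780 pairs shared 20 or more. In the ovary Serpina3m averaged 0.141 CPM and Serpina3n 23.1 CPM, both uncertain where reads fit more than 1 copy. Each of 3 motifs was searched on both strands, and none contains another. The androgen receptor half-site AGAACA was present in 17.5% of 33469 RefSeq upstream sequences and in 6 of the 44 from serpins, and TATAAA in 12.9% of all and in 6 of the 44. The forkhead motif TGTTTAC was present in 3.21% of all and in 0 of the 44. None of the 3 motifs occurred in the sequences of Serpina16, Serpina1f or Serpina1fl1, which says nothing of the factors themselves.

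Many members were hardly detected, in the rat more than in the sheep. In the rat, 19 of 50 members reached a mean of 10 CPM in some group, the threshold for describing a gene by name here, 25 reached 1 CPM and 25 stayed under 1 CPM in every group. Sperm had the most, with 13 members at 10 CPM or more, against 10 in the ovary and 5 in the brain of either sex. In the sheep, 12 of 23 members reached 10 CPM in some group, 9 of them in sperm, and SERPINA4 (kallistatin) and SERPINA7 (the thyroxine carrier) had no count in any of the 55 libraries. The members just inside this naming threshold were Serpinb5, at 10.7 CPM in rat sperm, and SERPINB13, at 12.3 CPM in sheep sperm. Just outside it were Serpina5, at 7.56 CPM in rat sperm, and SERPINF1, at 6.53 CPM in sheep hippocampus.

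Summed over the family, rat sperm carried 37439 ± 17115 CPM (SD, n = 15), with 8388 in the lowest library, 43469.6 at the median and 58918 in the highest. That was 3.53% of all assigned counts, from 0.874% to 6.25%. The ovary summed to 1285 ± 258 CPM (n = 14), female brain to 460.2 ± 36.2 CPM (n = 14) and male brain to 443 ± 37.7 CPM (n = 15). Every sperm library lay above every ovary and brain library. Serpina1f and Serpina16 took 94.98% ± 3.59 (SD, n = 15) of the serpin CPM of rat sperm, between 85.7% and 98.5% by library. In the sheep, sperm summed to 3764 ± 4929.9 CPM (n = 5). The lowest library was sheep 687 at 308.9 CPM, the median 1547 CPM and the highest sheep 688 at 12343 CPM. The regional means lay between 104 CPM in cerebellum and 240.1 CPM in motor cortex, and the highest brain library reached 302.4 CPM. As a share of assigned counts, without TMM factors, sperm of sheep 687 held 0.00382%, below every brain library (0.0127% to 0.0373%). Sheep 699, at 0.0236%, lay within that range, and sheep 688, 690 and 694 above it, up to 0.349%. In sheep 687 and 699 the excess over brain therefore depended on the TMM factors.

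**Figure D1:**
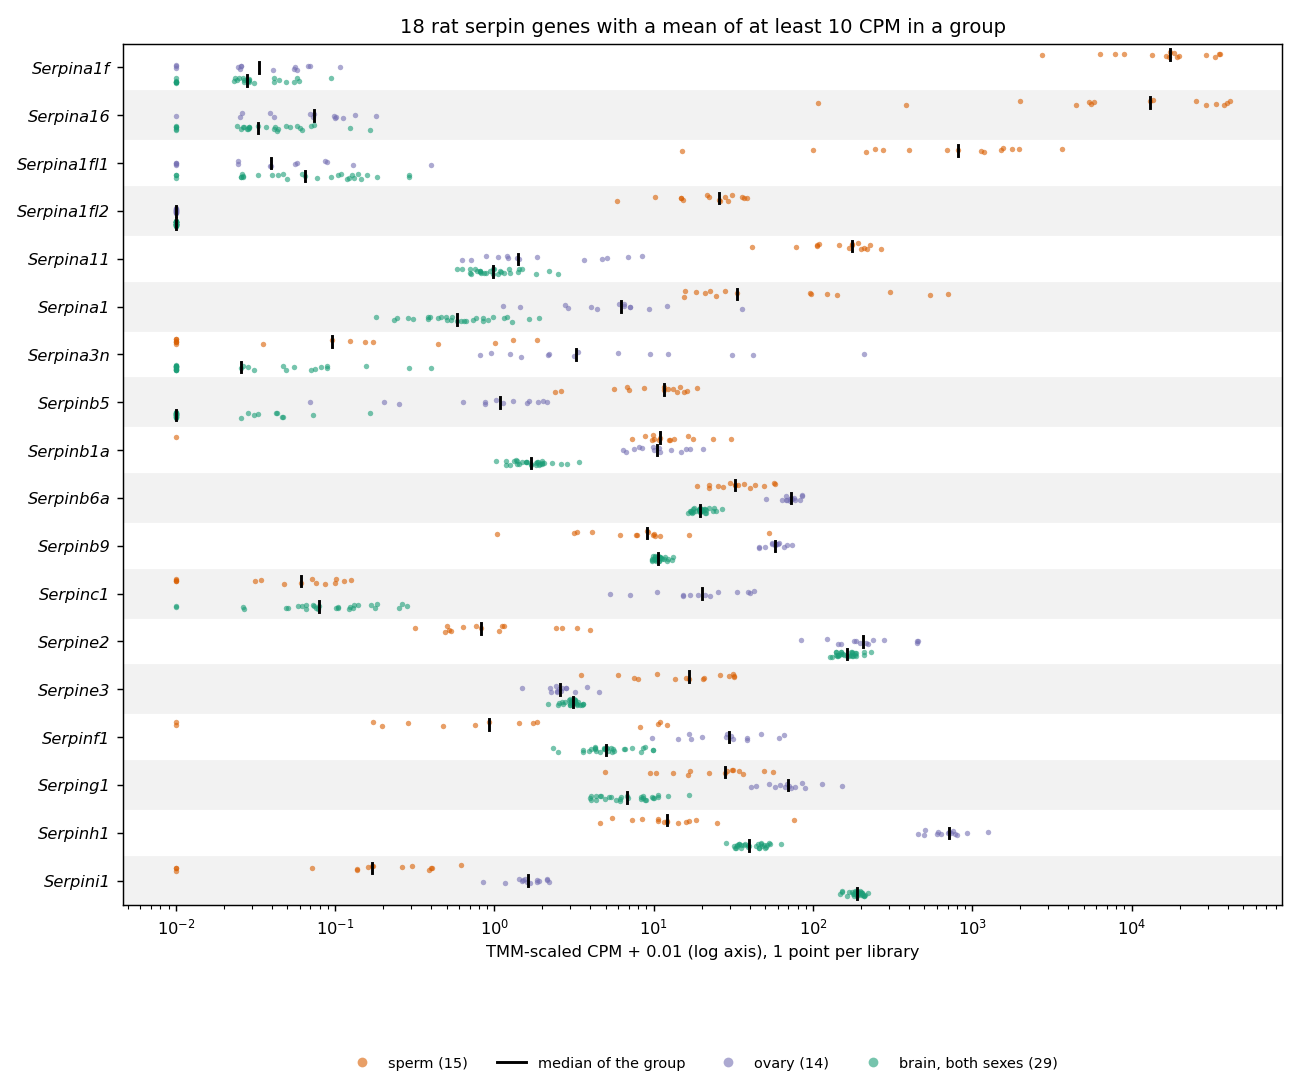
TMM-scaled CPM, on a log axis after adding 0.01, of 18 of the 19 rat serpins that averaged 10 CPM or more in a group. Points are libraries of sperm, ovary or brain (both sexes together) and bars are medians: Serpina1f and Serpina16 are the 2 members at the far right, with medians of 17482 and 13103 CPM in sperm, and Serpini1 has a mean of 183 CPM in male brain and 0.207 CPM in sperm.

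In rat sperm most serpin counts came from the chromosome 6 block. Serpina1f averaged 18744 ± 10499 CPM (SD, n = 15), with 2718 CPM at the lowest, 17482 CPM at the median and 35674 CPM at the highest. Its mean was 0.0195 CPM in male brain and 0.0318 CPM in ovary. All 15 sperm libraries were above all brain and ovary libraries. The lowest of them was rat 14 and the next lowest rat 17, at 6318 CPM. Serpina16 averaged 17171 ± 15575 CPM (SD, n = 15) and spread more widely, with 107 CPM at the lowest, 13103 CPM at the median and 41228 CPM at the highest, against 0.0431 CPM in male brain and 0.0674 CPM in ovary. Rats 3 and 7 were the low libraries for Serpina16, at 382 and 107 CPM, and rats 12, 15 and 17 the high ones, at 39568, 41228 and 38206 CPM. Both genes encode clade A serpins. The choice of the family rested on exactly these values.

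The copies next to Serpina1f were also found in sperm and hardly elsewhere. Serpina1fl1 averaged 1036 ± 973 CPM (SD, n = 15), from 15.0 to 3675 CPM, and Serpina1fl2 averaged 23.7 ± 9.96 CPM (SD, n = 15), from 5.87 to 38.5 CPM. Serpina1fl2 had no count in ovary or brain, and its sperm mean was at least 6655-fold above the floor of male brain, taken as 3 counts over the group. The annotated interval of Serpina1fl2 overlaps that of Serpina1f, and how reads that fit several copies were counted is not stated by the sources used here, so the split among the 3 copies is uncertain.

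**Figure D2:**
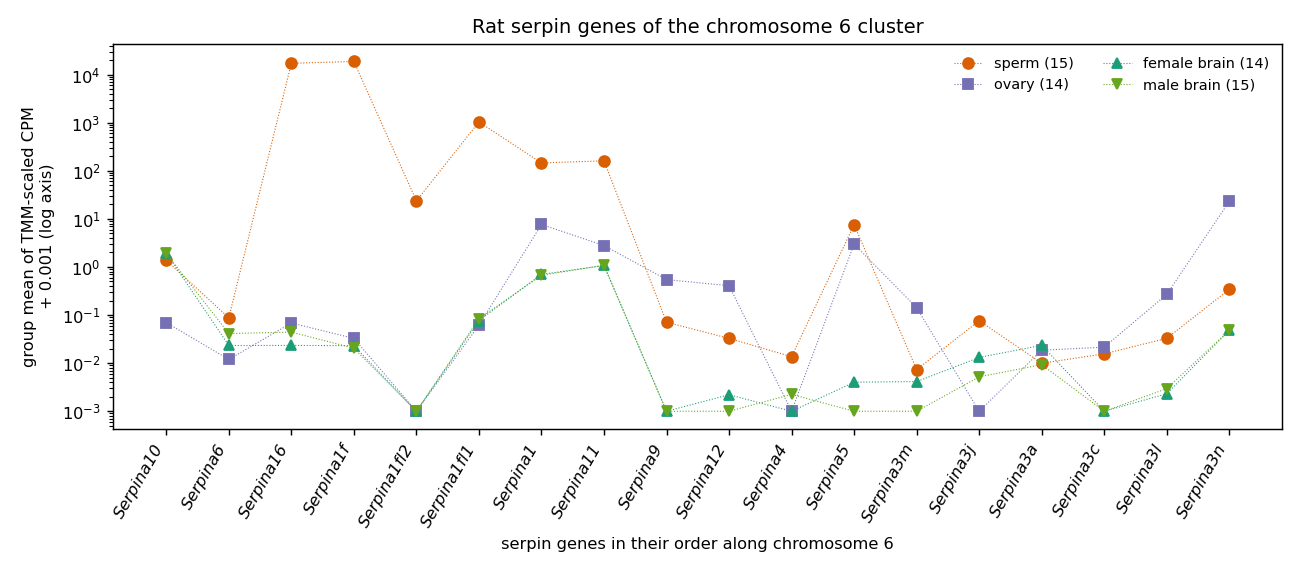
Group mean TMM-scaled CPM, on a log axis after adding 0.001, of the 18 serpins of rat chromosome 6 in their order along the chromosome, for sperm, ovary, female brain and male brain. In sperm, 6 neighbours from Serpina16 to Serpina11 reach 10 CPM, and in the ovary the single member that does is Serpina3n at the other end.

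Farther along the block, Serpina1, which encodes alpha-1 antitrypsin, the main inhibitor of neutrophil elastase, averaged 146 ± 210.4 CPM (SD, n = 15) in sperm with 15.5 CPM at the lowest, 33.1 CPM at the median and 700.0 CPM at the highest, against 0.672 CPM in male brain. Rats 14, 7 and 3 held the high values, 700.0, 545 and 306 CPM, while Serpina1f in rats 14 and 7 was among its lowest, at 2718 and 7903 CPM. Serpina11, a neighbour of the same clade, averaged 161 ± 62.3 CPM (SD, n = 15) with 41.3 CPM at the lowest, 174 CPM at the median and 267 CPM at the highest, against 1.08 CPM in male brain and 2.79 CPM in ovary. Serpina5, the inhibitor of activated protein C, averaged 7.56 CPM over the sperm libraries, with 50.9 and 42.9 CPM in rats 14 and 7 and a median of 1.07 CPM. It had no count in male brain, which put sperm at least 2125-fold above the floor of 3 counts there. The other 11 genes of the block, among them the steroid carrier Serpina6 and the Serpina3 copies, stayed under 10 CPM in sperm.

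Of the clade B members, 4 reached 10 CPM in rat sperm. Serpinb6a, an inhibitor of cathepsin G and related proteases, averaged 35.2 ± 12.2 CPM (SD, n = 15), from 18.6 to 57.5 CPM, against 19.8 CPM in male brain, with overlap. Serpinb5 (maspin), an epithelial protein that does not inhibit proteases in the usual way, averaged 10.7 ± 4.96 CPM (SD, n = 15), from 2.39 to 18.6 CPM, and all 15 libraries were above male brain. Serpinb1a, an inhibitor of neutrophil elastase, averaged 12.9 CPM, from 0 to 30.4 CPM. Serpinb9, the intracellular inhibitor of granzyme B, averaged 10.8 ± 12.4 CPM (SD, n = 15) in sperm and 11.0 CPM in male brain. It was lower in the sperm than in the brain of 13 of 15 rats and higher in 2, and the sperm libraries ran from 1.02 to 53.2 CPM. Reads of the Serpinb6 and Serpinb9 copies can fit several genes, and their values share that uncertainty.

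Members of the remaining clades went both ways in rat sperm. Serpini1 (neuroserpin), which inhibits tissue plasminogen activator, averaged 183 ± 19.3 CPM (SD, n = 15) in male brain, from 151 to 222 CPM, and 0.207 CPM in sperm. Serpine2 (protease nexin), an inhibitor of thrombin and plasminogen activators, averaged 161 ± 26.7 CPM (SD, n = 15) in male brain, from 127 to 209.7 CPM, and 1.34 CPM in sperm. Neither overlapped between sperm and brain. Serpinh1, the collagen chaperone, averaged 40.5 CPM in male brain and 16.5 ± 17.1 CPM (SD, n = 15) in sperm, where 1 library reached 75.4 CPM. Serping1, which blocks the first proteases of complement, averaged 25.9 ± 14.6 CPM (SD, n = 15) in sperm and 8.24 CPM in male brain. Serpine3 averaged 18.2 ± 10.1 CPM (SD, n = 15) in sperm, from 3.48 to 31.9 CPM, and 3.07 CPM in male brain. Serping1 and Serpine3 were higher in the sperm than in the brain of 15 of 15 rats, although the group ranges met. Of 23 members that passed the low-count filter, 12 were at least 2-fold higher and 5 lower in sperm at an adjusted p below 0.05, and the same calls held 27.7% and 31.5% of all genes tested. Nothing is read from these counts, since the family was chosen from this contrast.

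Serpina1f and Serpina16 did not move together from rat to rat in these libraries. Rat 10 held 35674 CPM of Serpina1f and 1995 CPM of Serpina16, whereas rat 15 held 8968 and 41228 CPM. Across the 15 sperm libraries the correlation of their log2(CPM + 1) values was r = 0.13 and rho = 0.02. Serpina1fl1, by contrast, followed Serpina16 more than Serpina1f. Its r with Serpina16 was 0.93 (rho 0.86) and with Serpina1f 0.12, while Serpina1fl2 had r = 0.75 (rho 0.78) with Serpina1f, and Serpina11 had 0.67 with Serpina1f and 0.49 with Serpina16. Serpina1 went the other way, with r = -0.58 against Serpina1f and r = -0.67 against Serpina16. No test is given for correlations of these genes over the 15 libraries, since their sperm levels led to the choice of the family. Every pair also shares its library, its depth and its scaling.

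**Figure D3:**
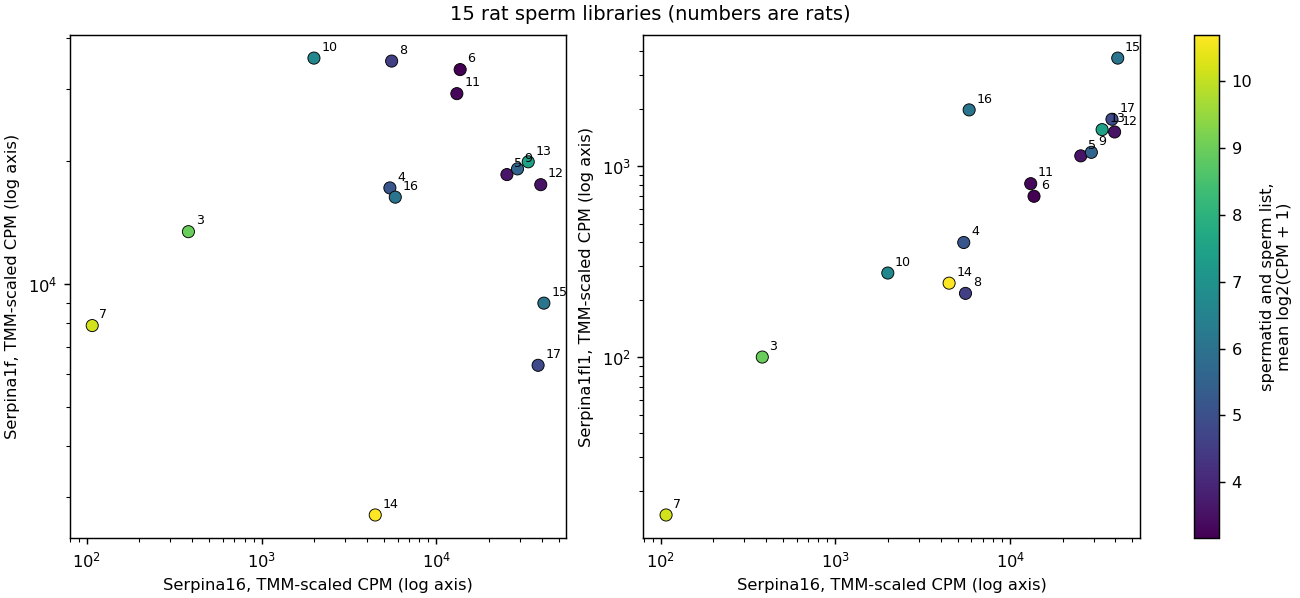
TMM-scaled CPM of Serpina1f (left) and Serpina1fl1 (right) against that of Serpina16 in the 15 rat sperm libraries, on log axes, 1 point per rat, coloured by the mean log2(CPM + 1) of the spermatid and sperm list. Points scatter on the left (r = 0.13) and follow a line on the right (r = 0.93), and rats 14, 7 and 3 carry the highest spermatid scores.

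Sperm libraries rich in markers of the sperm cell tended to be lower in both genes. The spermatid and sperm list scored highest in rats 14, 7 and 3, with summed levels of 29019, 21291 and 9238 CPM, and rat 11 had 383 CPM. Over the 15 libraries its mean log2 level had r = -0.64 and rho = -0.49 with Serpina1f, and r = -0.66 and rho = -0.50 with Serpina16. Without the 2 libraries farthest from the median of the serpin, r was -0.59 and -0.35. For the 12 epididymis genes the answer depended on how the list was summarised. The mean log2 level gave r = -0.62 with Serpina1f, and the log of the summed CPM, tried after seeing the data, gave r = 0.74. The same change took Serpina16 from r = -0.06 to r = 0.70. Summed epididymis CPM was lowest in rats 7 and 14, at 1800.0 and 1896, and highest in rat 9, at 12015. Of the epididymis list, 5 of 12 genes found reached 1 CPM in sperm. The part of cell mixture in the serpin levels was not tested.

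Most serpins tested were higher in the ovary than in the brain of the same 14 females. Of 22 members tested, 15 were higher and 5 lower in the ovary by edgeR's quasi-likelihood test, at least 2-fold with a Benjamini-Hochberg adjusted p below 0.05, and of all genes tested 27.7% were called higher and 29.2% lower. The filter on low counts kept Serpina3n, Serpina5, Serpinb5, Serpinb8 and Serpinc1 only through the ovary, where they are high, and of the other 17 members 10 were called higher and 5 lower. Serpinh1, the chaperone that procollagen needs to fold, was among those that rose. It averaged 711 ± 204 CPM (SD, n = 14) in the ovary, with 453 CPM at the lowest, 711 CPM at the median and 1256 CPM at the highest, and 43.4 ± 6.96 CPM (SD, n = 14) in brain, from 32.7 to 53.9 CPM. The groups did not overlap, and the log2 fold change was 4.04 ± 0.13 (SE; edgeR adjusted p = 1.22e-22). Of 10 collagen genes and folding partners of Serpinh1, 9 rose in the ovary, with a median log2 fold change of 4.23, among them Col3a1 (6.95) and Col1a1 (6.44). The remaining one, the prolyl hydroxylase subunit P4ha1, had 0.72. All 5 fibroblast markers were higher, but Col1a1, Col1a2 and Col3a1 are in both lists, so this is not a separate result. The 5 markers summed to 3360.2 to 9363 CPM against 34.4 to 129.9 CPM in brain, and the part of fibroblasts in the serpin difference was not tested.

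The inhibitors best known from the brain did not behave alike. Serpine2 averaged 240.0 ± 124 CPM (SD, n = 14) in the ovary, with 84.3 CPM at the lowest, 206 CPM at the median and 454 CPM at the highest, and 169 ± 24.0 CPM (SD, n = 14) in brain. The ovary value was the higher one in only 8 of 14 rats, the groups overlapped, and the log2 fold change of 0.51 ± 0.19 (adjusted p = 0.0114 in edgeR) stayed under the 2-fold threshold. Serpini1 went the other way, at 193 ± 16.6 CPM (SD, n = 14) in brain and 1.66 CPM in the ovary, from 0.840 to 2.2 CPM. It fell by 6.85 ± 0.12 on the log2 scale (edgeR adjusted p = 1.78e-29), without overlap. Of 17 target proteases tested, 11 rose and 4 fell in the ovary, with urokinase (Plau, 6.40), the membrane protease Prss8 (6.43) and tissue plasminogen activator (Plat, 1.99) among those that rose and coagulation factor F12 (-7.21) and cathepsin S (Ctss, -1.86) among those that fell. In the comparison of male and female brain 15 target proteases passed the filter, so some of the 17 entered only through the ovary. The count that rose was thus partly fixed by the filter. Of all genes tested, 27.7% were called higher in the ovary and 29.2% lower. Of 10 cofactors and clearance receptors, 5 rose, including the urokinase receptor Plaur (3.96) and thrombomodulin (Thbd, 2.78), and only Sorl1 fell (-3.18).

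Among the secreted inhibitors, Serping1 averaged 75.1 ± 29.0 CPM (SD, n = 14) in the ovary, from 41.0 to 151 CPM, and 6.51 CPM in brain, a log2 fold change of 3.52 ± 0.21. Its target proteases C1s (5.04) and C1r (4.65) rose as well. Serpinc1 (antithrombin), the main brake on thrombin in plasma, averaged 22.4 ± 12.3 CPM (SD, n = 14), with 5.32 CPM at the lowest, 20.0 CPM at the median and 42.8 CPM at the highest, against 0.10 CPM in brain, a log2 fold change of 7.78 ± 0.39. Serpinf1, a secreted factor that restrains vessel growth and does not inhibit proteases, averaged 32.0 ± 17.0 CPM (SD, n = 14) against 4.81 CPM, a log2 fold change of 2.75 ± 0.25. The group ranges of Serpinf1 met (9.74 to 65.8 CPM and 2.30 to 9.88 CPM), but the ovary was the higher sample in 14 of 14 rats. These 3 differences passed edgeR's test, with adjusted p of 6.48e-16, 5.36e-18 and 1.68e-11.

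Serpina3n, an antichymotrypsin that rises in the acute phase, spread widely among ovaries. It averaged 23.1 ± 54.7 CPM (SD, n = 14), with 0.805 CPM at the lowest, 3.23 CPM at the median and 208 CPM at the highest. Rat 21 had 208 CPM, rat 22 42.2 CPM and rat 27 30.7 CPM, and brain averaged 0.0471 CPM. The log2 fold change was 8.85 ± 1.09 (edgeR adjusted p = 9.38e-09), and all 14 ovaries were above all 14 brains. Serpina1 in the ovary averaged 7.65 CPM with 1 library, rat 19, at 35.8 CPM. The summed level of the 6 hepatocyte markers was 6.18 CPM in that library and was highest in rat 24, at 37.7 CPM, where Serpina1 was 2.78 CPM, and the part of liver-type RNA in the Serpina1 levels was not tested.

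In the ovary 3 clade B inhibitors above 10 CPM rose with narrow spreads, and each passed edgeR's test. Serpinb9 averaged 58.0 ± 7.96 CPM (SD, n = 14), from 45.4 to 73.9 CPM, against 10.6 CPM in brain (log2 fold change 2.46 ± 0.06), and its target Gzmb rose as well (6.26). Serpinb6a averaged 72.5 ± 9.04 CPM (SD, n = 14), from 50.9 to 85.7 CPM, against 20.2 CPM (1.86 ± 0.07). Serpinb1a averaged 11.4 CPM against 1.67 CPM (2.78 ± 0.18). None of these 3 overlapped between ovary and brain. The other members called higher were Serpina1 (3.49), Serpina11 (1.43), Serpinb5 (6.00), Serpinb6b (2.16) and Serpinb8 (5.33), all with means under 10 CPM in both tissues. Serpina5 was called higher as well, with a mean of 2.99 CPM in the ovary and 2 counts in all 14 brains, and the 95% counting interval of that ratio ran from 321- to 9567-fold. Besides Serpini1, those called lower were Serpina10 (-4.78), the inhibitor that works with protein Z, Serpinb6el1 (-2.80), Serpind1 (-2.29), which is heparin cofactor, and Serpinf2 (-1.31), the inhibitor of plasmin.

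No serpin differed between male and female brain by this test. Of 18 members tested in 15 male and 14 female brains, 0 were called by edgeR and 0 by DESeq2, 2 had an unadjusted p below 0.05, and 0.0583% of all genes tested were called. The lowest p belonged to Serpind1, with a log2 fold change of 0.58 ± 0.22 in males over females (edgeR adjusted p = 0.343). Serpini1 averaged 183 ± 19.3 CPM (SD, n = 15) in males and 193 ± 16.6 CPM (SD, n = 14) in females, from 151 to 222 CPM and 147 to 212 CPM, and Serpine2 161 and 169 CPM. None of the 15 target proteases, 10 cofactors or 10 collagen genes tested was called by edgeR either.

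In sheep sperm several serpins of clades A and B rose, and those that fell belonged to clades F, G, H and I. Of 19 members tested against the mean of the 10 brain regions, 11 were higher and 4 lower by edgeR's quasi-likelihood test, where 33.1% of all genes were called higher and 41.1% lower. The filter on low counts kept SERPINB2, SERPINB7 and SERPINB13 only through sperm, where they are high, and of the other 16 members 8 were called higher and 4 lower. SERPINA1 was at 208, 8339, 2777, 406 and 715 CPM in sheep 687, 688, 690, 694 and 699, and between 0 and 21.6 CPM in the 50 brain libraries, with a median of 0. All 5 sperm libraries were above every brain library, and the ratio of the means was 1857. The fitted log2 fold change of 16.97 ± 0.49 (adjusted p = 7.21e-31 in edgeR) averages the regions on the log scale, so with 0 to 2 counts in 6 of them its size depends on the small count edgeR adds.

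Clade B members of epithelia and leukocytes followed. SERPINB2, an intracellular inhibitor of plasminogen activators, was at 7.95, 2118, 232, 90.9 and 125 CPM in sheep 687, 688, 690, 694 and 699, against at most 0.211 CPM in any brain library (log2 fold change 13.69 ± 0.40). SERPINB7 (megsin) was at 2.24, 517, 43.9, 17.5 and 24.8 CPM in sheep 687, 688, 690, 694 and 699, with 6 counts in all 50 brain libraries. SERPINB12 was at 7.70, 491, 108, 11.0 and 57.7 CPM in sheep 687, 688, 690, 694 and 699, with a brain maximum of 1.02 CPM. In these 3 genes sheep 688 was the high library and sheep 687 the low one. SERPINB13, a keratinocyte inhibitor of cathepsins, ranged from 5.62 to 30.8 CPM with 12 counts in all brain libraries, and SERPINB5 (maspin) from 0 to 64.7 CPM against a brain mean of 0.490 CPM. Their log2 fold changes were 15.40 ± 0.54, 9.13 ± 0.46, 11.52 ± 0.34 and 6.16 ± 0.26, all called by edgeR, as was SERPINB2, and of these 5 only SERPINB5 overlapped with brain. Each SE here rests on 1 spread per gene fitted over all 55 sheep libraries, 50 of them brain. It does not measure the spread among the 5 sperm libraries, which was wide. For SERPINB7 and SERPINB13, with almost no counts in brain, the size of the fitted value again depends on the added count, and the ratio of means was 66642 and 3226. SERPINB1, the elastase inhibitor of neutrophils, was at 16.1, 119, 45.7, 108 and 72.5 CPM in sheep 687, 688, 690, 694 and 699 against 1.51 to 46.0 CPM in brain, which on the log2 scale is a change of 3.01 ± 0.25 (adjusted p = 6.94e-16 in edgeR) with overlap. It fell to 0.75 and lost its call when plain library totals replaced the TMM factors.

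Markers of other cells ran high in the same libraries. In sheep 687, 688, 690, 694 and 699, the summed level of the neutrophil list was 12784, 141298, 75409, 27622 and 51018 CPM, carried mostly by S100A8 and S100A9, and 5 of 6 of its genes tested were called higher in sperm. The granule genes ELANE, MPO and PRTN3, which define maturing neutrophils, averaged 0.418, 0.852 and 0.120 CPM. The stratified squamous epithelium list summed to 7062, 89468, 23345, 5055 and 22289 CPM, with 9 of 9 tested genes higher. The spermatid and sperm list summed to 7596, 221, 2691, 787 and 7949.6 CPM, with 12 of 12 higher. By these sums sheep 688 was highest for the neutrophil and squamous lists and lowest for the sperm list. By mean log2(CPM + 1) the neutrophil list was highest in sheep 694, at 6.47, against 6.24 in sheep 688. Within brain alone 3 neutrophil, 6 squamous and 6 spermatid genes passed the low-count filter. The others entered through sperm, where they are high, so these counts were partly fixed by the filter. Of all genes tested 33.1% were called higher. The epididymis list summed to no more than 35.1 CPM. The part of these cells in the serpin levels was not tested. Without sheep 688 the log2 fold changes were 15.94 for SERPINA1, 11.44 for SERPINB2, 13.00 for SERPINB7 and 7.52 for SERPINB12.

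**Figure D4:**
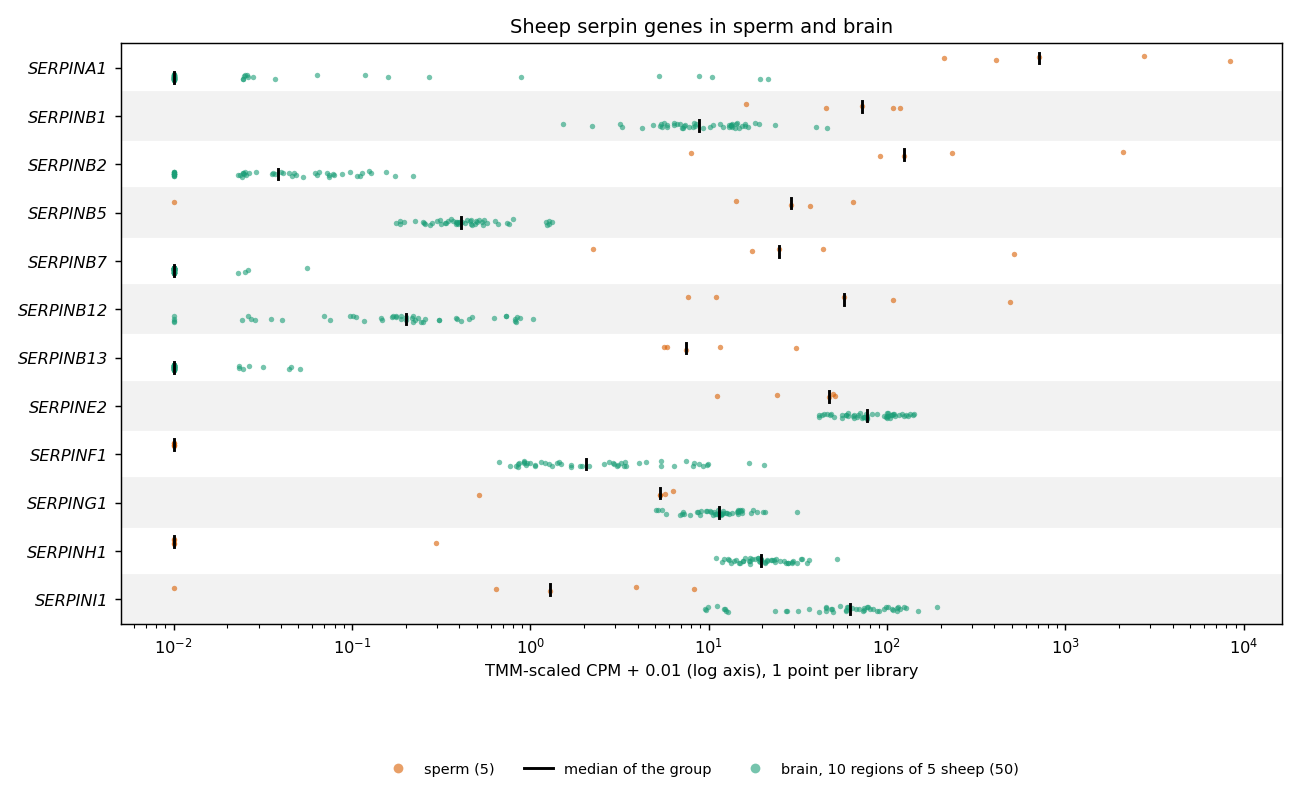
TMM-scaled CPM, on a log axis after adding 0.01, of 12 sheep serpins in the 5 sperm libraries and the 50 brain libraries, 1 point per library with bars at the medians. Sperm points of SERPINA1, SERPINB2, SERPINB7, SERPINB12 and SERPINB13 lie above all brain points, and those of SERPINH1 and SERPINI1 lie below them.

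Members with high levels in brain followed a different pattern. SERPINE2 was at 11.2, 51.4, 47.2, 24.2 and 50.1 CPM in sheep 687, 688, 690, 694 and 699, against a median of 77.2 CPM in brain (41.5 to 141). The groups overlapped and the log2 fold change of -0.97 ± 0.19 fell just short of the 2-fold threshold, while plain totals gave -3.35, which passed. SERPINI1 was lower in sperm, at 0, 8.28, 3.88, 1.28 and 0.634 CPM in sheep 687, 688, 690, 694 and 699 against 9.50 to 190.2 CPM in brain, which on the log2 scale is a change of -4.07 ± 0.45 (adjusted p = 1.08e-11 in edgeR). SERPINH1 had 4 counts in sperm, all from sheep 688, so sperm had none without it, against 21.7 CPM on average in brain, a log2 fold change of -7.76 ± 0.50. Of its 10 collagen partners 9 were lower in sperm, with a median log2 fold change of -3.42. The exception was P4HB (4.17), a disulfide isomerase with many other clients.

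SERPING1 was at 5.34, 0.504, 6.27, 5.33 and 5.71 CPM in sheep 687, 688, 690, 694 and 699, against 5.09 to 31.1 CPM in brain. The log2 fold change of -1.24 ± 0.29 (adjusted p = 1.26e-04 in edgeR) rested on sheep 688, the lowest library. It became -0.95 without it, which no longer passed the threshold. SERPINF1 had no count in sperm and was at least 55.8-fold lower there than in brain, with the floor of 3 counts over the group. At lower levels SERPINC1 (4.05), SERPIND1 (2.16) and SERPINE3 (2.19) were called higher, each under 10 CPM in sperm. Of the serpins' target proteases 6 of 17 tested rose and 8 fell in sheep sperm, shares close to those of all genes. The epithelial proteases PRSS8 (11.91) and ST14 (7.08) and the activators PLAU (3.70) and PLAT (4.01) were among those that rose, and C1S (-4.92), C1R (-4.20) and HTRA1 (-6.87) among those that fell. Of 9 cofactors and receptors 3 rose, with PLAUR at 11.07, and 3 fell, with VLDLR at -3.85, again near the shares of all genes. The scale of the whole comparison moved with the normalization. The median over all genes was -0.42 with TMM factors and -2.84 with plain totals. Under plain totals 8 of 19 members were called higher and 8 lower, and 3249 and 15084 of all 21859 genes.

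Within the sheep brain, 12 of 16 serpins tested were called in at least 1 region against the mean of the other 9, and 41.9% of all genes were. The cerebellum held most of these calls, with 5 members higher and 5 lower (28.8% of all genes were called there in either direction), followed by the basal ganglia with 2 higher and 2 lower (10.3%). In the entorhinal cortex 3 were higher (2.24%), in the hippocampus 2 (4.62%) and in the pons 2 (18.7%). The frontal (2.77%) and motor cortex (1.64%) had 1 each. Of these 23 calls, 12 were lost when at least 1 of the 5 sheep was left out. The 5 lower calls of the cerebellum became 3 without sheep 687, 690 or 699, and also with plain totals or no filter. The 3 of the entorhinal cortex became 1 without sheep 687 or 694. The 2 of the hippocampus became 0 without sheep 688 and 1 without sheep 690 or 694, and those of the pons 1 without sheep 690 or with DESeq2, 3 without sheep 699 and 4 without the filter on low counts. The higher calls of the basal ganglia became 1 without sheep 687 or 699 and with plain totals, and the lower calls 1 without sheep 699. In the posterior parietal (2.66%), prefrontal (2.46%) and visual cortex (2.12%) 0 were called by edgeR and 0 by DESeq2, although 3, 2 and 2 members had an unadjusted p below 0.05 in edgeR.

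SERPINI1, which neurons secrete, differed strongly from region to region. It averaged 113 ± 55.5 CPM (SD, n = 5) in motor cortex, 106 in frontal cortex, 89.6 in hippocampus, 86.1 in prefrontal, 76.4 in entorhinal and 71.9 CPM in visual cortex, then 51.8 in pons, 44.5 in posterior parietal cortex, 17.7 in basal ganglia and 10.5 ± 1.16 CPM (SD, n = 5) in cerebellum. The ranges over sheep of most neighbours in this order overlapped, but the cerebellum (9.50 to 12.2 CPM) lay below all basal ganglia libraries (12.4 to 27.1 CPM). In cerebellum it fell by 2.65 ± 0.27 on the log2 scale (edgeR adjusted p = 1.87e-11) and in basal ganglia by 1.77 ± 0.25 (edgeR adjusted p = 2.53e-07). Its rise in motor cortex (1.16 ± 0.19) became 0.89 without sheep 688, and that in frontal cortex (1.05 ± 0.19) became 0.98 without sheep 699, each then under the 2-fold threshold. SERPINE2 was highest in posterior parietal cortex, at 131 ± 7.11 CPM (SD, n = 5), and lowest in cerebellum, at 45.8 CPM, with no call in any region.

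**Figure D5:**
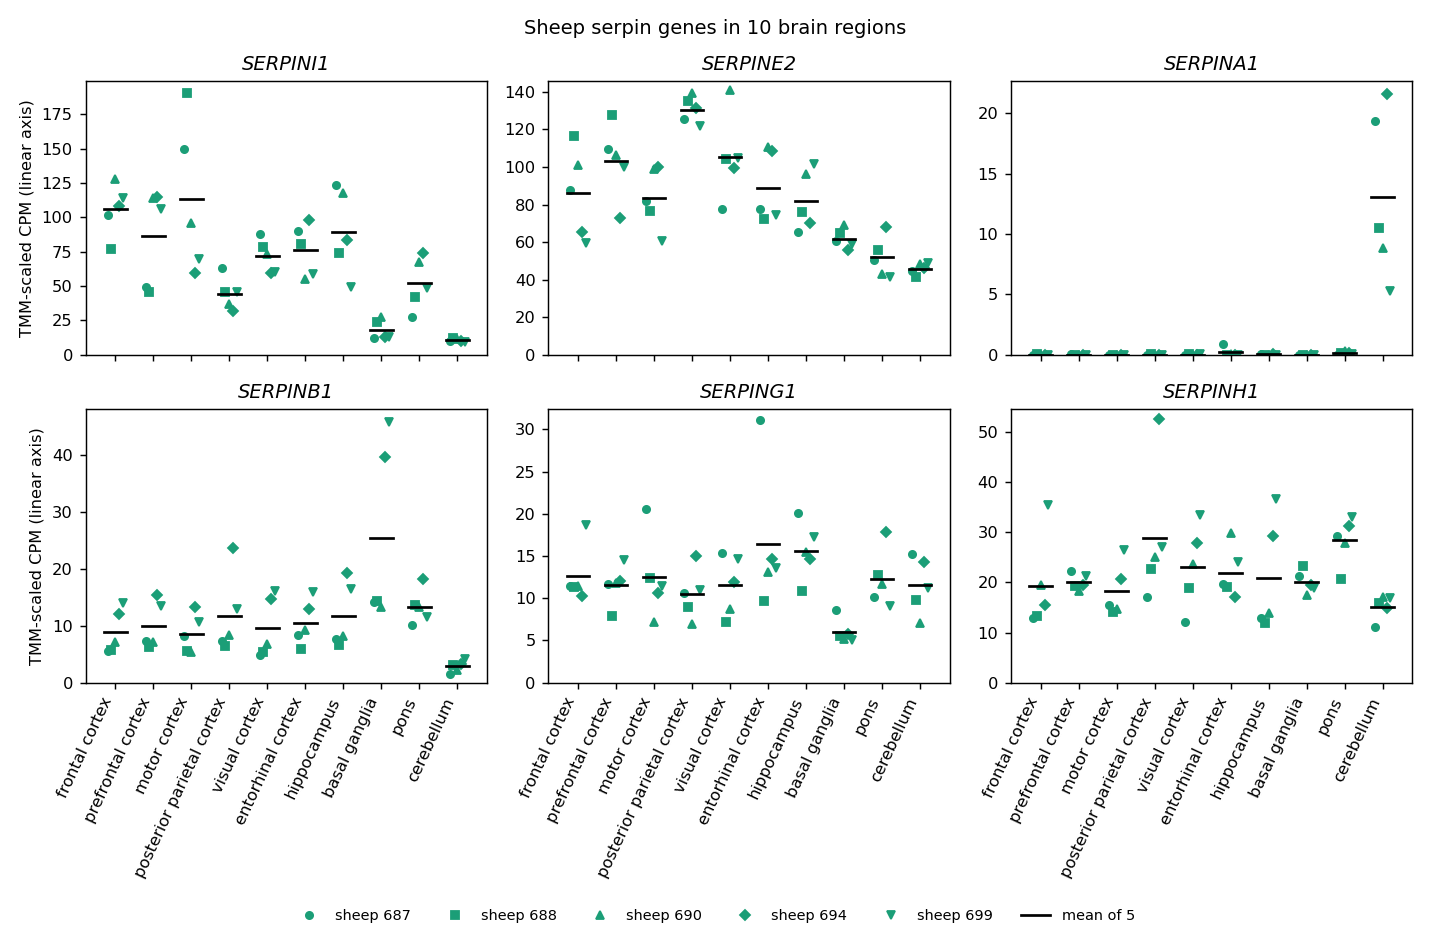
TMM-scaled CPM, on linear axes, of SERPINI1, SERPINE2, SERPINA1, SERPINB1, SERPING1 and SERPINH1 in the 10 sheep brain regions, with 1 marker per sheep and bars at the mean of 5. SERPINA1 is above 1 CPM in the cerebellum alone, where its mean is 13.1 CPM, and SERPINI1 is lowest there.

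Within the brain SERPINA1 was found mainly in the cerebellum. Its levels there were 19.3, 10.5, 8.82, 21.6 and 5.23 CPM in sheep 687, 688, 690, 694 and 699, while it averaged 0.178 CPM in entorhinal cortex, 0.107 CPM in pons and no more than 0.0163 CPM in any other region. All 5 cerebella were above every library of the other 9 regions. The cerebellar mean was 73.7 times that of entorhinal cortex, the next region, and the fitted log2 fold change was 10.28 ± 0.49 (edgeR adjusted p = 9.93e-20). The calls in entorhinal cortex (3.47 ± 0.71) and pons (2.69 ± 0.77) rested on less than 1 CPM. The first came from sheep 687, at 0.872 CPM, and became -1.51 without it, and the second became 1.91, no longer past the threshold, without sheep 690. Choroid plexus markers summed to 2.92, 12.5, 507, 800.3 and 58.0 CPM in the cerebella, and the part of that tissue in the SERPINA1 levels was not tested. In hippocampus these markers reached 1205 CPM and SERPINA1 was at most 0.0542 CPM. The neutrophil list summed to 0.299 to 1.11 CPM in the cerebella.

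The other cerebellar calls were smaller. SERPINA10 (1.89 ± 0.30), SERPINB5 (1.49 ± 0.22), SERPINC1 (1.27 ± 0.38) and SERPINE3 (1.55 ± 0.26) were higher, all with low levels. SERPINB1 (-2.03 ± 0.37), SERPINF1 (-1.49 ± 0.65) and SERPINI2 (-1.28 ± 0.54) were lower, the latter 2 with no call when any 1 of several sheep was left out. SERPINB1 averaged 2.86 ± 1.04 CPM (SD, n = 5) in cerebellum and 25.5 ± 16.0 CPM (SD, n = 5) in basal ganglia, its highest region, where it was called higher (1.51 ± 0.26; edgeR adjusted p = 1.47e-05). All 5 microglia markers were lower in cerebellum as well, with a summed level of 19.7 to 53.3 CPM against 109 to 339.6 CPM in basal ganglia. So were all 5 endothelium markers and all 3 neutrophil genes tested. In basal ganglia, where SERPINB1 was called higher, 0 of 5 microglia and 0 of 5 endothelium markers were called. The part of any of these cells in the SERPINB1 difference was not tested. SERPING1 averaged 16.4 CPM in entorhinal cortex and 15.6 CPM in hippocampus at the top, and 6.03 CPM in basal ganglia at the bottom (-1.05 ± 0.22). SERPINI2, a relative of neuroserpin, was higher in entorhinal cortex (1.68 ± 0.41), hippocampus (1.6 ± 0.41) and pons (1.51 ± 0.42), at about 2.17, 2.08 and 1.93 CPM. SERPINF2, the inhibitor of plasmin, was higher in hippocampus (1.72 ± 0.50), under 1 CPM. Both hippocampal calls were lost without sheep 688, at 1.37 for SERPINI2 and 1.66 for SERPINF2. That of SERPINF2 was also lost without sheep 694, at 1.04, and that of SERPINI2 without sheep 690, at 1.47. The SERPINI2 call in entorhinal cortex was lost without sheep 694, at 1.46. SERPINH1 averaged from 15.2 CPM in cerebellum to 28.9 CPM in posterior parietal cortex and was called in no region.

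The species had 21 serpin symbols in common, 29 were in the rat tables only, and SERPINB1 and SERPINA14 were in the sheep tables only. This match is by exact symbol, so rat Serpinb1a and Serpinb1b were not paired with SERPINB1. Among the shared symbols, SERPINI1, SERPINE2, SERPINH1 and SERPINF1 had higher means in brain than in sperm in both species. So did SERPINF2 and SERPINI2, with means under 1 CPM. The sperm levels themselves differed between the species in several genes. SERPINB2 averaged 515 CPM in sheep sperm and 0.0811 CPM in rat sperm, and SERPINB12 135 and 0.00481 CPM. SERPINE3 averaged 0.707 CPM in sheep and 18.2 CPM in rat sperm, SERPINA5 0.211 and 7.56 CPM, and SERPINH1 0.0576 and 16.5 CPM. SERPINA1 was above brain in every sperm library of both species. Species, extraction and library kit cannot be told apart here and the gene models differ in length, so these values stand side by side with no test.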

How the data were processed

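Messenger RNA was sequenced in 113 libraries, 58 from rat and 55 from sheep. Per the labels' protocols, sheep RNA went through TRIzol and a Kapa stranded mRNA kit and rat RNA through Zymo and Watchmaker kits, so species and kit cannot be told apart. Per the submitters' processing notes, the authors trimmed reads with Trimmomatic 0.39, aligned them with STAR 2.7.5a to GRCr8 or ARS-UI_Ramb_v3.0 and counted them with Rsubread 2.20.0. The deposited values are raw counts per gene. How strand and reads that fit several genes were handled is not given in the sources used here. White blood cell and mass spectrometry samples were not analysed here.

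The members and all gene lists were chosen with earlier results of these data known. Groups and animal numbers came from the labels. Counts were scaled with TMM factors and tested in R 4.3.3 with edgeR 4.0.16, by its quasi-likelihood test after filterByExpr, with a prior count of 0.125. A gene was called at a Benjamini-Hochberg adjusted p below 0.05 over all genes tested and at least a 2-fold change. Members averaging 10 CPM or more in a group of a comparison were described by name and the others by counts or single values. Standard errors were taken from the fold change and its F statistic. Each fit used 1 spread per gene over all its libraries, so an SE does not measure the spread within 1 group. Correlations used log2(CPM + 1). Folds against a group without counts used a floor of 3 counts over the group, which covers counting error only. The fits were tested on simulated counts. The main fits held no animal term, so libraries of 1 animal entered as independent. Alternatives were RLE factors, plain totals, no filter, DESeq2 1.42.0, the animal as a block and libraries left out. Leaving out the brain libraries of rats 1 and 4, and summing a list as CPM, were chosen after seeing the data.

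Replicate numbers are animal numbers in the labels and so pair the samples. The median correlation of same-animal deviations was 0.0118 for ovary and brain, 0.0160 for rat sperm and brain, 0.0253 for sheep sperm and cerebellum, and 0.267 for hippocampus and motor cortex. No pair of libraries held identical counts. The values of 1 member that entered the counts are not reported here. Sheep genes are named by symbol alone, without positions. Genes of the sheep tables that carry placeholder names could include further serpins and were not counted.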

Additional observations from a re-analysis of the deposited data

Results flagged for a closer look

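In groups of 5 sheep a library was marked when its gap to the nearest other library took up most of the range of the group. Of 64 groups with at least 20 counts, 10 were marked. A rate of about 1 in 20 by chance would hold only for independent, normally distributed values. CPM are skewed and the groups share libraries, so the number of marks is not compared with that rate. In sperm, 5 of the marks belonged to sheep 688. It had the highest SERPINB2 (2118 CPM), SERPINB7 (517 CPM), SERPINB12 (491 CPM) and SERPINB13 (30.8 CPM) and the lowest SERPING1 (0.504 CPM). In entorhinal cortex sheep 687 stood alone for SERPINA1, at 0.872 CPM, and for SERPING1, at 31.1 CPM. Sheep 687 was also the high library for SERPING1 in basal ganglia, at 8.62 CPM, and sheep 699 in frontal cortex, at 18.7 CPM. SERPINH1 stood alone in the posterior parietal cortex of sheep 694, at 52.6 CPM.

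For 2 members every sheep moved one way between brain and sperm and every rat the other way. SERPINB13 averaged 12.3 CPM in sheep sperm and 0 in rat sperm. In male rat brain it averaged only 0.104 CPM, 90 counts over all 15 libraries, so its direction in the rat rests on a level near the floor. SERPING1 averaged 4.63 CPM in sheep sperm, below brain in all 5 sheep, and 25.9 CPM in rat sperm, above brain in all 15 rats. The difference between the species was not tested.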

How the results depend on the processing

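The counts of serpins called higher in sheep sperm, in the ovary and in rat sperm stayed within 1.5 times of the reported ones under RLE factors, plain totals and the animal block. Without the low-count filter the ovary had 27 higher and 10 lower of 48 tested, in place of 15 and 5 of 22. Of 33789 genes 8485 were then higher and 10314 lower. DESeq2, which also tests low genes, gave 25 and 8 members, and 7493 and 9299 of 30511 genes. In rat sperm the filter's removal gave 29 higher and 7 lower of 50 tested, in place of 12 and 5, and 12974 and 9093 of 35486 genes. DESeq2 gave 19 higher and 8 lower there, and 8590 and 9781 of 34098 genes. Plain totals gave 8 lower in sheep sperm in place of 4, and 8 higher in place of 11. Of all 21859 genes plain totals called 15084 lower and 3249 higher. With the replicate block the paired counts were 14 and 5 in ovary, 11 and 6 in rat sperm, 11 and 5 in sheep sperm and 12 over the regions. Of all genes the block called 5681 higher and 6156 lower in ovary, 4384 and 7541 in rat sperm, and 7126 and 9142 in sheep sperm. Over the regions it called 8978 of 21147. Leaving out each sheep in turn gave 11 higher and 4 to 5 lower in sperm, and 10 to 11 called over the regions. Of all genes 6859 to 7307 were then higher and 8811 to 9234 lower in sperm, and 8564 to 8926 were called over the regions.

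Of the named members' values under the alternatives, 408 kept direction and call, 14 lost the call, 8 gained it and 2 reversed. The tally pools all comparisons. It includes rat sperm against brain, from which the family was chosen, and the correlations of Serpina1f and Serpina16 with the marker lists, so nothing is read from it. SERPINA1 in entorhinal cortex ranged from -1.51 to 4.09 with each sheep left out, the lowest without sheep 687, and DESeq2 gave 3.41 without a call. Its pons value was 2.61 with DESeq2, without a call. The correlation of Serpina1f with the epididymis list became 0.74 when the list was summed as CPM. That of Serpina1f with the spermatid list became -0.50 with plain totals. SERPING1 in sheep sperm was -0.92 with RLE factors and -0.91 with DESeq2, both under the threshold. Its basal ganglia value became -0.99 without sheep 699. For Serpina3n, SERPINA1 and other members at or near 0 in 1 group, depth and the added count limit the size of the fitted fold. Where no cause is shown by the construction of an alternative, the cause was not tested.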

Other observations

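Over the 10 brain regions the 5 sheep differed in SERPINB1, the elastase inhibitor. Its mean over the regions was 17.3 CPM in sheep 694 and 16.1 CPM in sheep 699, against 7.54, 7.30 and 8.13 CPM in sheep 687, 688 and 690. Sheep 694 was among the highest 2 animals in 10 of 10 regions and sheep 699 in 9 of 10, the exception being the pons. SERPINH1 was among the highest 2 in sheep 699 in 9 regions, and SERPING1 in sheep 687 in 7 regions and in sheep 690 in 0. The labels give no difference between these animals, and these values, picked after they were seen, carry no test.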
